A study of Sus scrofa with 48 samples.

Results

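TRAF6, CD40 and the receptors, adaptors and kinases that feed the same innate signalling route were followed in subcutaneous adipose tissue (SCAT) of 48 pigs of 132 days. All were castrated males of the Large White breed with free access to feed. The design crossed genetics with diet. It had lines selected for low residual feed intake (low RFI, labelled RFIneg) or high residual feed intake (high RFI, labelled RFIpl), RFI being the feed eaten beyond what growth predicts, so that low RFI pigs are the more efficient. The diets were a feed high in fat and fiber (HF) or low in both and rich in starch (LF). Each diet was given to 12 low RFI and 12 high RFI pigs, which makes 4 groups with 1 array per pig. Each direction of selection was represented by 1 line, so that selection and the descent of a line cannot be told apart. The genes were TRAF6, CD40, TRAF2, TRAF3, MYD88, IRAK1, IRAK4, TLR2, TLR4 and NFKB1, and their probes were found by the gene name or accession that the array gives. A probe was kept where, in any group, 9 or more of the 12 arrays had it well above background. In all, 26 probes for 9 of the 10 genes were found, and 25 of them were kept, of 44356 kept probes on the array. No probe was found for TRAF2 by this rule, so that TRAF2 was not analysed here. The probe left out was TLR4 A_72_P444577, well above background on 7, 5, 5 and 4 of 12 arrays in the HF groups (low, then high RFI) and the LF groups (likewise). The kept probe nearest to the limit, TLR2 O12067, passed on 11, 11, 11 and 12 arrays. TRAF6 and CD40 were chosen by their line differences, which ran in opposite directions, so these differences are described below without a test.

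Toll-like receptors such as TLR2 and TLR4 sense microbial lipoproteins and lipopolysaccharide, and TLR4 also responds to damage signals in fat. They recruit the adaptor MYD88 and the kinases IRAK4 and IRAK1, which engage TRAF6, a ubiquitin ligase upstream of NF-kB. CD40, a receptor of the TNF receptor family carried by B cells, dendritic cells, macrophages and some stromal cells, binds TRAF2, TRAF3 and TRAF6 directly. TRAF3 holds back the non-canonical NF-kB route, and NFKB1 encodes a precursor of an NF-kB subunit.

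Every value is the log2 of the spot brightness minus the median of its array, so that 0 is the median kept probe. Levels are compared between pigs for 1 probe. Brightness was set side by side across probes only to order or pick the probes of a gene, and levels were summed over genes only for cell markers. A probe was called differentially expressed with the cut-offs of the study (raw p under 0.01, fold over 1.1, adjusted p under 0.08), here in limma with Benjamini-Hochberg adjustment over all kept probes. The share of probes well above background lay between 62.2% and 81.9% on the 48 arrays, which filled 6 slides of 8 arrays and were scanned on 2 dates.

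The sequences of the probes on which the results turn are given first, since probes of 1 gene did not always give the same result. The 2 TRAF6 probes read separate stretches of its coding sequence. A_72_P223847 lies in the part for the carboxy-terminal TRAF domain, and O8523 lies towards the amino terminus, at the end of the part for the RING finger. Their longest shared stretch is 8 bases.
TRAF6 A_72_P223847: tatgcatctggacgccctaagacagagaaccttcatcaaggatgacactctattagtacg
TRAF6 O8523: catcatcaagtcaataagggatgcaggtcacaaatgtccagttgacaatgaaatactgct
Of the 4 CD40 probes, A_72_P544217, shown here, reads coding sequence, whereas A_72_P124966 and A_72_P294444 share 51 of their 60 bases, so that these 2 are not separate measurements of the gene.
CD40 A_72_P544217: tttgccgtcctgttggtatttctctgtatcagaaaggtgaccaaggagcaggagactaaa
NFKB1 had 2 probes shifted by a few bases against each other, shown with the 54 bases they share in capitals, and a separate probe, O12055.
NFKB1 A_72_P278054: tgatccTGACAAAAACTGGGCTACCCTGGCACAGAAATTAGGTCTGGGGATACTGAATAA
NFKB1 A_72_P146316: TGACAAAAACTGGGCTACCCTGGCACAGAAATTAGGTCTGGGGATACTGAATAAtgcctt

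At the brighter TRAF6 probe, A_72_P223847, the level was higher in low RFI pigs. In HF low RFI pigs it ran from 2.74 to 3.79 with a median of 3.51, and in LF low RFI pigs from 3.1 to 3.93 with a median of 3.66. In HF high RFI pigs it ran from 0.93 to 3.64 with a median of 2.09, and in LF high RFI pigs from 1.1 to 3.89 with a median of 3.07. The low RFI pigs were thus close together and the high RFI pigs were spread widely, with overlap at the upper end. The mean was 3.48 ± 0.36 in low RFI pigs (SD, n = 24) and 2.55 ± 0.99 in high RFI pigs (SD, n = 24), a difference of 0.93 (SE 0.20) on the log2 scale or 1.91-fold. All 24 low RFI pigs lay above the mean of the high RFI pigs.

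The high RFI pigs did not form a single cloud at this TRAF6 probe. Of the 24, 9 lay between 0.93 and 1.61, and the other 15 lay between 2.63 and 3.89. No pig of either line lay in the interval of 1.03 log2 units between them, the widest gap between neighbouring pigs, and the next widest gap over the 48 pigs was 0.24. Of the 9 pigs below the gap, 6 had been fed HF and 3 LF, 5 were on arrays of the first scan date and 4 of the second, and they were spread over 5 of the 6 slides. Of the 15 high RFI pigs above the gap, 12 lay at or above the lowest low RFI pig. The same division into 9 pigs, 6 HF high RFI and 3 LF high RFI, and the other 39 was found with each of the other scalings, backgrounds and filters and in the table of the authors, with gaps of 0.88 to 1.09.

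The second TRAF6 probe, O8523, showed a smaller difference and no such gap. Its level ran from -1.70 to -1.01 (median -1.37) in HF low RFI pigs and from -1.97 to -1.03 (median -1.61) in HF high RFI pigs. It ran from -1.70 to -0.65 (median -1.16) in LF low RFI pigs and from -2.15 to -0.67 (median -1.20) in LF high RFI pigs. All 4 groups overlapped over most of their range. The mean was -1.25 ± 0.28 (SD, n = 24) in low RFI pigs and -1.41 ± 0.38 in high RFI pigs, 0.16 apart (SE 0.09), and the widest gap between neighbouring pigs was 0.18. The line difference that chose TRAF6 is therefore mainly that of the probe in the TRAF domain.

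**Figure D1:**
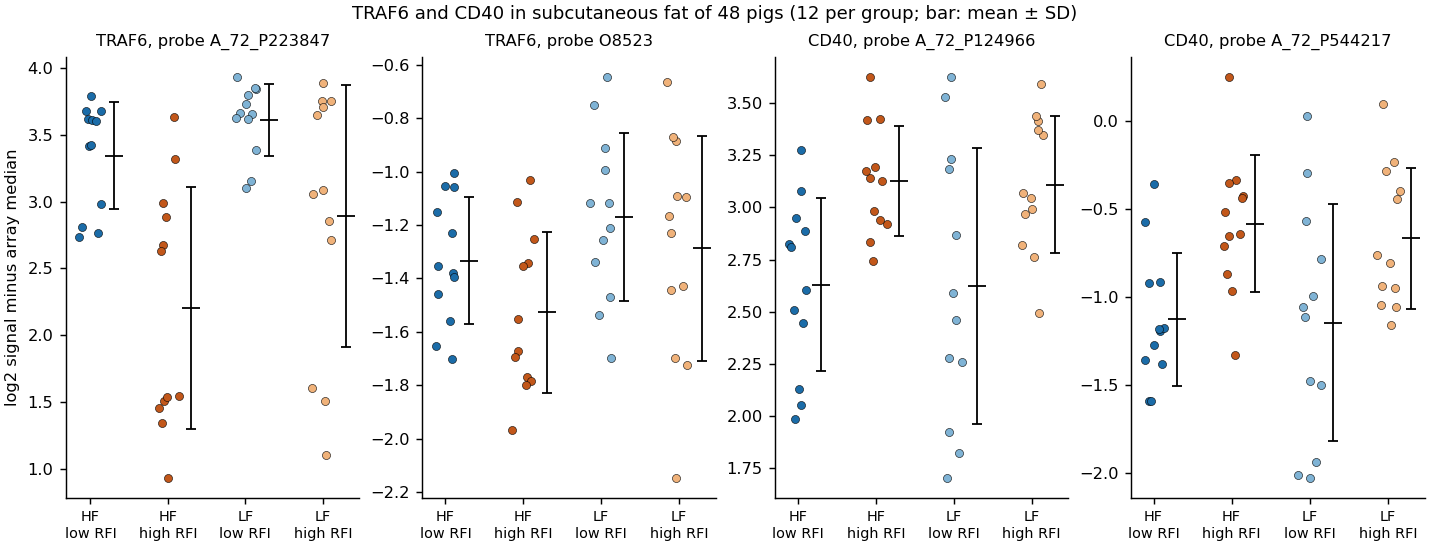
Level of TRAF6 at 2 probes and of CD40 at 2 probes (log2 signal minus array median, y axis, own scale in each panel) in the 4 groups of 12 pigs, 1 point per pig with the mean and SD beside it. At A_72_P223847, 9 high RFI pigs lie at or below 1.61 and every low RFI pig at or above 2.74, whereas at O8523 the groups overlap, and at both CD40 probes the low RFI pigs reach lower than the high RFI pigs.

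CD40 went the other way, with lower levels in low RFI pigs at all 4 probes. At A_72_P124966 it ran from 1.99 to 3.27 (median 2.71) in HF low RFI pigs and from 2.74 to 3.62 (median 3.13) in HF high RFI pigs. It ran from 1.70 to 3.62 (median 2.53) in LF low RFI pigs and from 2.49 to 3.59 (median 3.06) in LF high RFI pigs. The lines overlapped at high levels, and low RFI pigs alone reached the lowest ones. The mean was 2.63 ± 0.54 (SD, n = 24) in low RFI pigs and 3.12 ± 0.29 in high RFI pigs, and 23 of 24 high RFI pigs lay above the mean of the low RFI pigs. The difference was -0.49 (SE 0.12) or 1.41-fold.

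At the CD40 probe shown above, A_72_P544217, the level ran from -1.59 to -0.36 (median -1.19) in HF low RFI pigs and from -1.33 to 0.25 (median -0.58) in HF high RFI pigs. It ran from -2.03 to 0.03 (median -1.09) in LF low RFI pigs and from -1.16 to 0.10 (median -0.78) in LF high RFI pigs. The same pattern was seen, with a line difference of -0.51 (SE 0.13), and A_72_P294444 and A_72_P088376 gave -0.49 and -0.47. A further probe that carries a CD40 transcript accession only in its name, looked up after the values were seen, gave -0.45 (SE 0.14). The widest gap between neighbouring pigs was 0.34 at A_72_P544217 (0.42 without spots of flagged local background) and 0.15 to 0.17 at the other 3 CD40 probes, against 1.03 at TRAF6 A_72_P223847. Without those spots, 2 pigs were left below the gap at A_72_P544217 and 32 above it, so that not every pig kept a value there. That probe was absent from the authors' table.

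The line differences that chose these genes were also divided by diet, scan date and slide, as a description of the same values. Within the 4 combinations of diet and scan date, each with 6 low RFI and 6 high RFI pigs, TRAF6 A_72_P223847 differed by 1.16 and 1.11 in HF pigs and by 0.83 and 0.62 in LF pigs. TRAF6 O8523 differed by 0.29 and 0.10 in HF pigs and by 0.20 and 0.03 in LF pigs. The 16 values of the 4 CD40 probes lay between -0.62 and -0.38. By slide, TRAF6 was higher in low RFI pigs on 5 of 6 slides at either probe, and CD40 was lower on 5 of 6 slides at 3 probes and on 6 of 6 at A_72_P544217.

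**Figure D2:**
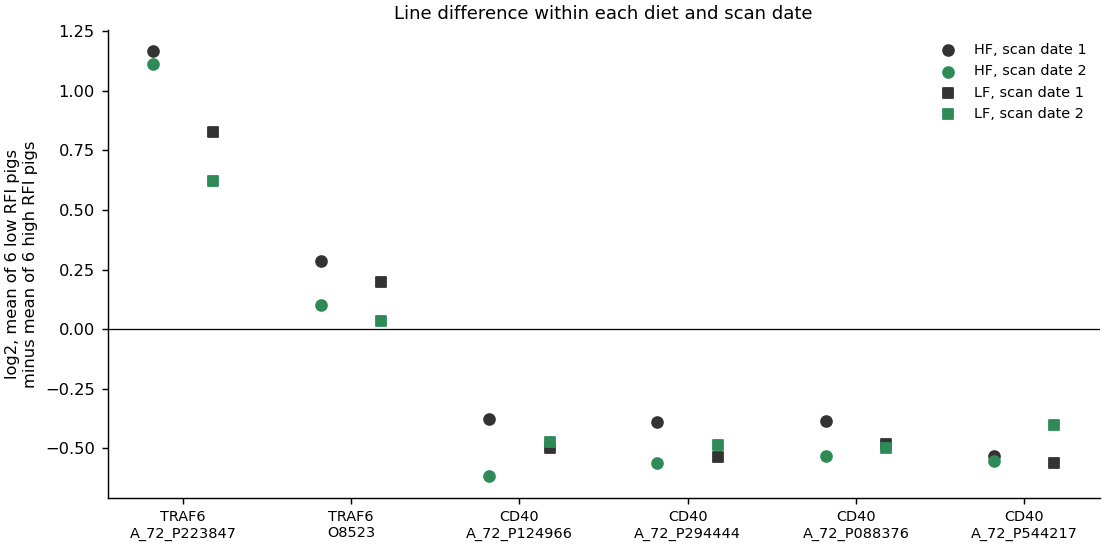
Mean of 6 low RFI pigs minus mean of 6 high RFI pigs (log2, y axis) at the 2 TRAF6 and 4 CD40 probes, separately in HF pigs (circles) and LF pigs (squares) and on the first (dark) and second (green) scan date. All TRAF6 values lie above 0 and all CD40 values below 0, and O8523 lies near 0 on the second date.

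No dependence of these line differences on the diet was detected. The interaction, the line difference in HF minus that in LF pigs, was 0.41 at TRAF6 A_72_P223847 (95% interval -0.38 to 1.21) and 0.08 at O8523 (-0.30 to 0.45), and lay between -0.06 and 0.04 at the CD40 probes, with intervals that end at or within -0.60 and 0.54. With array position as a block it was 0.92 at TRAF6 A_72_P223847 (-0.02 to 1.86, limma adjusted p = 1), from line differences of 1.26 in HF and 0.34 in LF pigs, and 0.27 at O8523 (-0.22 to 0.76), whose line difference in LF pigs was then -0.01. The CD40 probes gave -0.20 to -0.06 in that fit and 0.15 to 0.28 with array weights, where TRAF6 A_72_P223847 gave 0.60. No member probe was called for the interaction (0 of 25, limma, smallest adjusted p = 1), as were 0% of all probes. At an unadjusted p under 0.05 there were 0 of 25 member probes, against 1.04% of all, and a two-way analysis of variance also called 0. The interval at TRAF6 A_72_P223847 is wide enough under either fit to hold a line difference that is over 1 log2 unit larger under HF.

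Few members passed the test for diet. Of the 25 probes, 1 was called, lower with HF, against 13.1% of all probes called for diet and 7.44% called lower. At an unadjusted p under 0.05 there were 5 member probes, against 25.5% of all, and these were the 2 TRAF6 probes and 3 of the 4 TRAF3 probes. The median diet difference of the 25 was -0.01, beside -0.02 over all kept probes.

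TRAF6 was lower under HF at both probes, without passing the test. At A_72_P223847 the mean was 2.77 ± 0.90 (SD, n = 24) in HF pigs and 3.25 ± 0.79 in LF pigs, a difference of -0.48 (SE 0.20, limma adjusted p = 0.109). At O8523 the difference was -0.20 (SE 0.09, adjusted p = 0.157), and 17 of 24 LF pigs lay above the HF mean. With slide as a block, O8523 was called (-0.20, adjusted p = 0.0535). The diet difference at A_72_P223847 was -0.69 in high RFI pigs and -0.27 in low RFI pigs (limma adjusted p = 0.235 and 0.712). Its mean was highest in LF low RFI pigs (3.61 ± 0.27, SD, n = 12), followed by 3.34 ± 0.40 in HF low RFI, 2.89 ± 0.98 in LF high RFI and 2.20 ± 0.91 in HF high RFI pigs. Each neighbouring pair in that order differed by less than the larger of its SDs. No diet difference was detected at CD40, with values of 0.00 to 0.05 at its 4 probes and intervals that end at or within -0.24 and 0.32. Within each line, 0 of 25 probes were called for diet (limma, against 3.04% of all probes in the low RFI line and 1.66% in the high RFI line), with 2 and 1 at an unadjusted p under 0.05 and 0 by the analysis of variance. With array weights, 2 of the 25 were called in low RFI pigs.

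TRAF3, an adaptor that restrains the non-canonical NF-kB route, was the one gene with a called probe. At A_72_P479388 its level ran from -0.26 to 0.58 (median 0.30) in HF low RFI and from -0.07 to 0.49 (median 0.29) in HF high RFI pigs. It ran from 0.18 to 0.81 (median 0.47) in LF low RFI and from 0.13 to 0.78 (median 0.35) in LF high RFI pigs. The groups overlapped, with the lowest values in HF pigs, and 18 of 24 LF pigs lay above the HF mean. TRAF3 fell by 0.21 under HF at this probe (SE 0.07, 1.15-fold, limma adjusted p = 0.0352). The other TRAF3 probes gave -0.13, -0.12 and -0.11 and were not called. On the first scan date alone the called probe gave -0.09 and was not called (adjusted p = 0.629), and on the second it gave -0.32 and was called (adjusted p = 0.0545). It was not called after 75th percentile scaling (-0.16, adjusted p = 0.132) or in the authors' table (-0.15, adjusted p = 0.0995).

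The other members were then compared between the lines. They were not picked for this comparison, but the members were chosen with earlier results of these data known. None of the 19 probes of the 7 genes measured was called (limma, against 1.37% of all probes), the smallest adjusted p was 0.12, and a two-way analysis of variance also called 0. At an unadjusted p under 0.05 there were 3 of 19, against 10.4% of all probes. The median line difference of the 19 was 0.05, beside 0.01 over all kept probes. Within HF and within LF pigs, 0 of these 19 were called (against 0.0113% and 0.0338% of all probes), with 1 each at an unadjusted p under 0.05 and 0 by the analysis of variance.

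Among the receptors, TLR2, the sensor of bacterial lipoproteins, gave lower values in low RFI pigs at both probes without passing the test. At A_72_P088356 it ran from -1.43 to 0.02 (median -0.81) in HF low RFI, from -1.03 to 0.33 (median -0.25) in HF high RFI, from -1.52 to 0.53 (median -0.46) in LF low RFI and from -1.09 to 0.44 (median -0.53) in LF high RFI pigs. All 4 groups overlapped. The line difference was -0.22 (SE 0.13, adjusted p = 0.627) and that of O12067 was -0.24 (SE 0.12, adjusted p = 0.432). On the first scan date alone the differences at TLR2 were -0.46 at each probe, and on the second 0.01 and -0.03. Whether the dates differed was not tested.

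TLR4, the lipopolysaccharide receptor, had 4 kept probes. The brightest, A_72_P444572, ran from -0.28 to 1.30 over the 48 pigs, with a line difference of 0.07 (SE 0.11), and A_72_P165431 and A_72_P547391 gave 0.06 and 0.05. The dimmest, A_72_P419074, gave 0.33 (SE 0.10, raw p = 0.00254, adjusted p = 0.12), with 20 of 24 low RFI pigs above the high RFI mean. That probe ran from -3.15 to -2.18 (median -2.44) in HF low RFI, from -3.44 to -2.31 (median -2.87) in HF high RFI, from -3.34 to -1.93 (median -2.72) in LF low RFI and from -3.42 to -1.92 (median -3.06) in LF high RFI pigs. It was called with array weights (0.35, adjusted p = 0.034). The probes of TLR4 therefore disagreed about the size of the line difference. Diet differences of TLR4 and TLR2 lay between -0.06 and 0.09.

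The adaptor and kinases downstream of these receptors were not called for diet or line. MYD88, the adaptor that most Toll-like receptors share, ran from 4.38 to 5.20 over the 48 pigs at its brightest probe, A_72_P245972, with a line difference of 0.01 (SE 0.05, 95% interval -0.10 to 0.12) and a diet difference of -0.02 (SE 0.05). Its other probes were spread more widely. MYD88 O4729 ran from -1.17 to 0.86, with a line difference of -0.09 (SE 0.14, 95% interval -0.37 to 0.20) and a diet difference of 0.10, and A_72_P088111 ran from -3.28 to -1.79, with 0.08 (SE 0.10) for line and 0.01 for diet. IRAK4, the first kinase of the chain, ran from 1.75 to 2.51 at O12189, with a line difference of -0.04 (SE 0.05) and a diet difference of 0.03. IRAK1, the kinase it activates, ran from -0.71 to 0.08 at its only probe, with a line difference of -0.03 (SE 0.06) and a diet difference of -0.10 (SE 0.06, adjusted p = 0.268). The intervals leave room for line differences of at most 0.15 log2 units in either direction at the brightest probe of each of the 3 genes.

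NFKB1 ran from -0.29 to 0.67 at A_72_P278054, with a line difference of 0.04 (SE 0.07) and a diet difference of 0.03. O12055 gave a line difference of 0.13 (SE 0.06, raw p = 0.0199, adjusted p = 0.324), and 17 of 24 low RFI pigs lay above the high RFI mean there. A_72_P146316, which shares most of its letters with A_72_P278054 as shown above, gave 0.00.

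**Figure D3:**
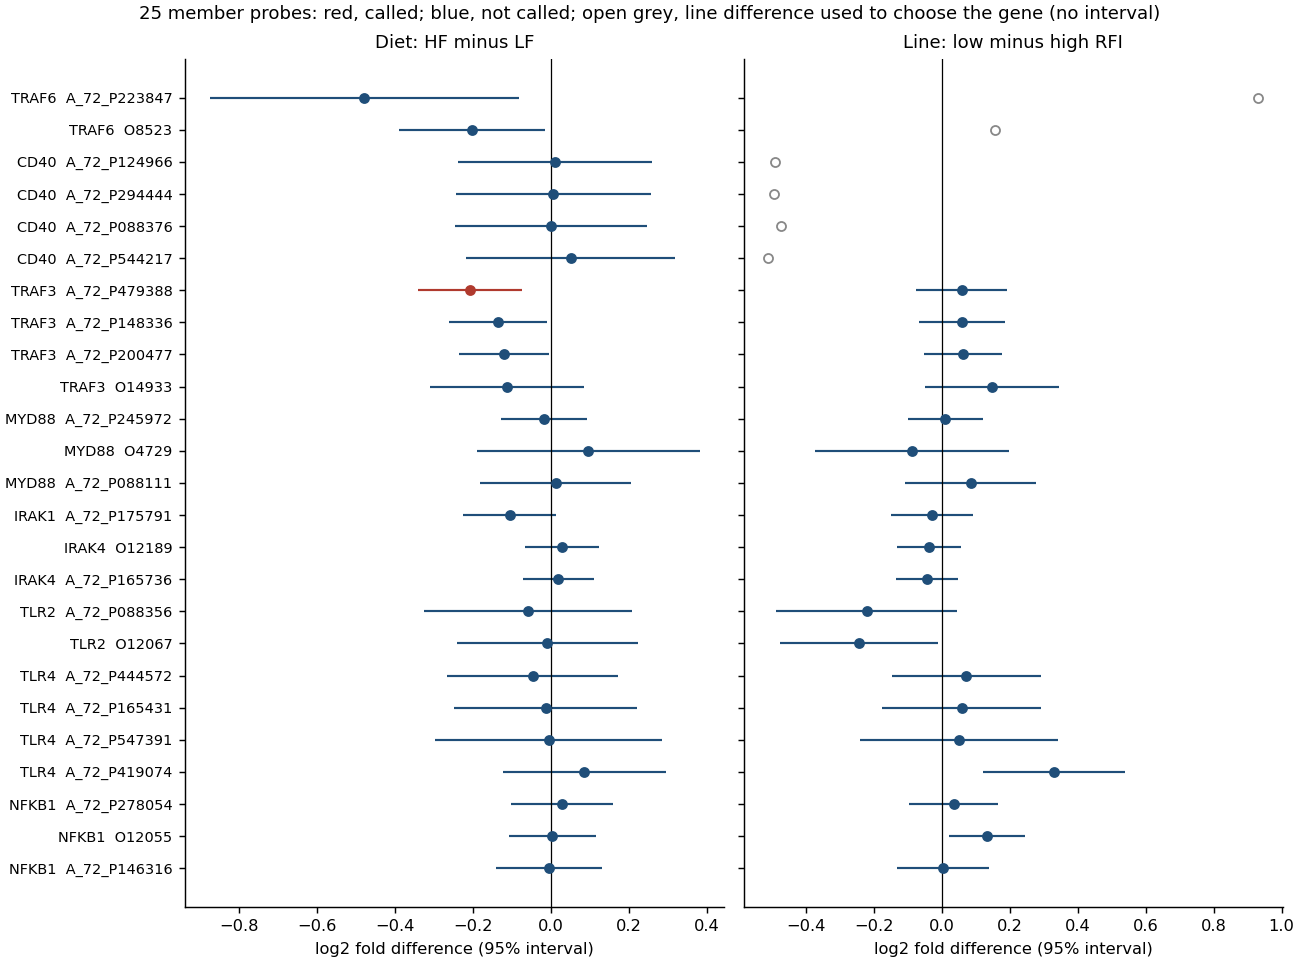
Diet difference (HF minus LF, left) and line difference (low minus high RFI, right) of the 25 probes on the log2 scale, with 95% intervals from limma on the filled points. The red point is the called probe (TRAF3 A_72_P479388, -0.21 for diet), blue points were not called, and open grey points are the line differences of TRAF6 and CD40, which were used to choose these genes.

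Probes of 1 gene were compared over pigs after subtracting the group means, and TRAF6 was compared with CD40 in the same way, in 15 relations in all, with permutation tests within groups and adjustment over the 15. Since the high RFI pigs formed 2 sets at TRAF6 A_72_P223847, its relations were computed within low RFI pigs and within each of these sets. This division was made after the values were seen. The 2 TRAF6 probes gave r = 0.43 (rho = 0.44) in the 24 low RFI pigs (permutation p = 0.0313, adjusted p = 0.0588), 0.44 without the 2 pigs farthest from the median and 0.52 and 0.36 on the 2 scan dates. They gave r = 0.37 (rho = 0.35) in the 15 high RFI pigs above the gap (permutation p = 0.187, adjusted p = 0.281) and r = 0.63 (rho = 0.67) in the 9 below it (exact permutation p = 0.121, adjusted p = 0.201). The high RFI sets were divided on the values of A_72_P223847 itself, which narrows its range in each, so that these r cannot be set against those over all pigs at other genes. For the same reason the p values in these sets cannot decide whether the 2 TRAF6 probes are related in high RFI pigs. The CD40 probes A_72_P124966 and A_72_P544217 gave r = 0.91 and rho = 0.91 over the 48 pigs (0.89 without the 2 farthest pigs, 0.93 and 0.91 on the 2 scan dates). Its permutation p of 1e-05 is the smallest that the resamples can give (adjusted p = 2.14e-05).

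No relation between TRAF6 and CD40 passed the test over pigs with group means subtracted. Between TRAF6 A_72_P223847 and CD40 A_72_P124966, r was 0.16 (rho = 0.12) in low RFI pigs (permutation p = 0.421, adjusted p = 0.526), and 0.36 and -0.05 on the 2 scan dates. It was -0.33 (rho = -0.36) in the 15 high RFI pigs above the gap (permutation p = 0.251, adjusted p = 0.342; -0.29 and -0.60 on the 2 dates) and 0.02 (rho = -0.12) in the 9 below it (exact permutation p = 0.955, adjusted p = 0.955). The 2 high RFI sets were divided on the TRAF6 values, which narrows the range of TRAF6 in each. Their tests cannot decide whether TRAF6 and CD40 are related there. TRAF6 O8523 gave r = -0.10 (rho = -0.12) with the same CD40 probe over the 48 pigs (permutation p = 0.497, adjusted p = 0.532), and -0.23 without the 2 farthest pigs. On the 2 scan dates it gave -0.10 and 0.03.

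**Figure D4:**
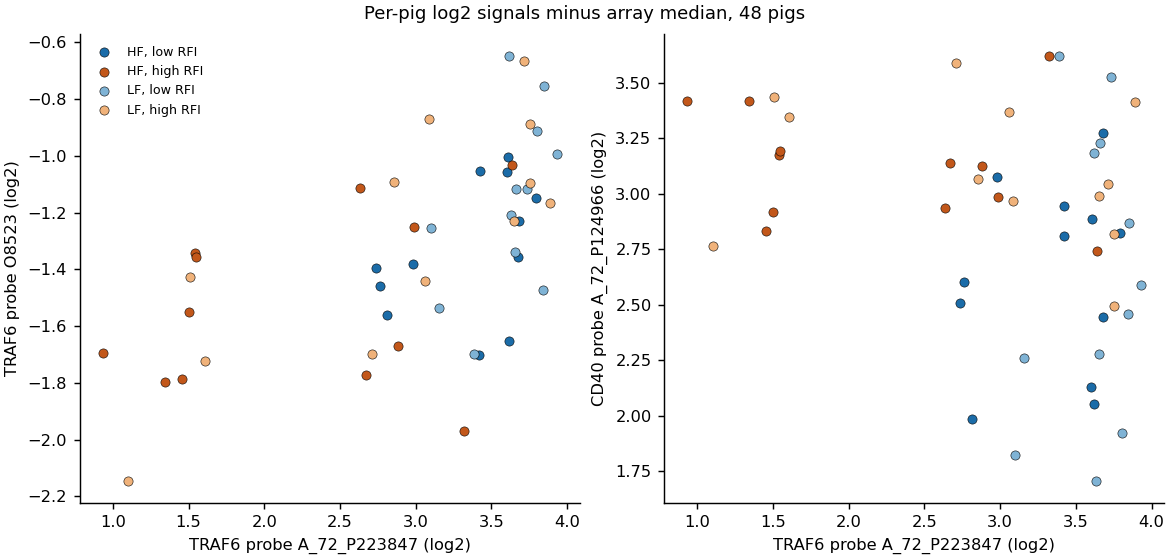
Level of TRAF6 at A_72_P223847 (x axis) against TRAF6 at O8523 (left) and CD40 at A_72_P124966 (right), log2 signal minus array median, 1 point per pig with colours for the 4 groups. The 9 high RFI pigs below the gap lie apart on the x axis, and they span -2.15 to -1.34 at O8523, where the other 39 span -1.97 to -0.65, and 2.76 to 3.44 at CD40, where the others span 1.70 to 3.62.

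Among the other genes, the brightest and next brightest probe gave r of 0.83 at TRAF3, 0.72 at MYD88, 0.86 at IRAK4, 0.74 at TLR2 and 0.92 at TLR4 over the 48 pigs (permutation p = 1e-05 and adjusted p = 2.14e-05 at each, rho 0.84, 0.63, 0.85, 0.71 and 0.91). At NFKB1, A_72_P278054 gave r = 0.87 with the probe that overlaps it but -0.11 (rho = -0.07, permutation p = 0.475, adjusted p = 0.532, 0.08 and 0.06 on the 2 dates) with O12055. A relation between NFKB1 values at these 2 positions was thus not detected.

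The genes whose levels were most like those of CD40 over the 48 arrays, out of 11106 others at their brightest probe, were CXCL10 (r = 0.81), CXCL13 (r = 0.79) and GP91-PHOX (r = 0.77), given as a description. CXCL10 and CXCL13 encode chemokines for T cells and B cells, and GP91-PHOX the oxidase subunit of phagocytes. With group means subtracted they were CXCL10 (r = 0.83), CXCL9 (r = 0.81) and ICOS (r = 0.78). The line differences of these 5 genes were -0.78 at CXCL13 (SE 0.30), -0.46 at CXCL10 (SE 0.29), -0.36 at GP91-PHOX (SE 0.13), -0.34 at CXCL9 (SE 0.28) and -0.24 at ICOS (SE 0.22). Their part in the line difference of CD40 was not tested. For TRAF6 they were U2AF1L4 (r = 0.66), EPN2 (r = 0.64) and SLC48A1 (r = 0.62), and with group means subtracted U2AF1L4 (r = 0.56), SLC44A4 (r = 0.51) and EPN2 (r = 0.50). The line differences of these 4 genes were 0.22 at U2AF1L4 (SE 0.06), 0.22 at EPN2 (SE 0.07), 0.46 at SLC48A1 (SE 0.10) and 0.06 at SLC44A4 (SE 0.07). Where group means were not subtracted, the ranking used levels that hold the line difference by which CD40 and TRAF6 were picked. That can favour genes whose line difference has the same sign, so the differences of genes ranked in this way are given with no test. CXCL9, ICOS and SLC44A4 appeared only with group means subtracted, and none of them was called for line. These values share the 48 arrays and their centring. Over all 44355 other kept probes, the one most like TRAF6 A_72_P223847 (r = 0.89) carried no gene name in the array files and had a line difference of 0.51. Its median was -2.04 in HF low RFI, -2.67 in HF high RFI, -1.88 in LF low RFI and -2.12 in LF high RFI pigs.

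Markers of the cells that carry CD40 were read at the same arrays. Of 10 macrophage markers, 9 were measured, and none was called for line, against 1.17% of all genes. Lower values in low RFI pigs were found at 7 of the 9. Their median line difference was -0.14, beside 0.02 over all genes. The summed level of the 9 markers ran from 23.2 to 121 (median 43.3) in low RFI pigs and from 32.3 to 99.9 (median 49.8) in high RFI pigs, in units of the array median. Of 7 B cell markers, 5 were kept, with a median line difference of 0.05 and a summed level of 2.11 to 4.43 in low RFI pigs and 2.06 to 4.37 in high RFI pigs. Of 7 dendritic cell markers, 3 were kept (median 0.03, summed level 2.59 to 11.5 in low RFI pigs and 2.77 to 6.88 in high RFI pigs), and FLT3 was not kept. T cell markers (6 of 7 kept, CD4 not kept) gave a median of 0.07 and summed levels of 11.9 to 17.0 and 10.3 to 14.4. Endothelial, adipocyte, skeletal muscle, red blood cell and neutrophil markers gave medians between -0.06 and 0.09, and no marker of any list was called for line. For diet, 12.6% of all genes were called. Among the markers, LEP, the adipocyte hormone leptin, was called lower with HF (-0.67, SE 0.16, limma adjusted p = 0.00507), as was CXCR2, a chemokine receptor of neutrophils (-0.25, SE 0.08, adjusted p = 0.0252). The other 3 neutrophil markers kept, S100A8, S100A9 and S100A12, gave values above 0 (0.12, 0.08 and 0.23) and were not called. All 7 skeletal muscle markers gave lower values with HF, and none was called. Their median diet difference was -0.22, beside -0.04 over all genes. The largest were uncertain, with -0.51 at MYLPF (SE 0.30), -0.46 at MYH2 (SE 0.32) and -0.37 at TNNT3 (SE 0.34). Whether the 7 varied together over pigs was not tested. The other lists gave diet medians between -0.12 and 0.10. The part of these cells in the line differences of CD40 and TRAF6 and in the diet differences of TRAF3 and the pathway genes was not tested, and in whole tissue, fewer cells of a type and less RNA per cell cannot be told apart.

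Other genes of the same pathway were read from 5 lists, at the brightest kept probe of each gene. Over all lists, 9 of 88 genes measured were called for diet, 8 lower and 1 higher with HF, against 12.6% of all 11107 genes (9.35% lower and 3.29% higher), and 1 of 88 for line, against 1.17% (0.783% higher in low RFI). Both counts moved under other settings, as given in the closing section. At an unadjusted p under 0.05 there were 17 of 88 for diet and 7 for line, against 26% and 10.2% of all genes. The list medians lay between -0.08 and 0.04 for diet, beside -0.04 over all genes, and between -0.04 and 0.02 for line, beside 0.02.

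Of the Toll-like receptors and their co-receptors, 0 of 16 were called for diet or line (limma, with 0 and 1 at an unadjusted p under 0.05). Of the adaptors, kinases and brakes of the receptors, 2 of 17 were called for diet and 0 for line at the brightest probe (1 at an unadjusted p under 0.05). TICAM1, the adaptor of the MYD88-independent route, fell from 2.42 ± 0.25 in LF to 2.15 ± 0.23 in HF pigs (SD, n = 24 each, -0.27, SE 0.07, adjusted p = 0.00898), with 22 of 24 LF pigs above the HF mean. IRF7, a transcription factor of the interferon response, fell from 3.33 ± 0.44 to 2.85 ± 0.36 (-0.47, SE 0.11, adjusted p = 0.00443), and 2 of its 3 probes were called.

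Of the TRAF and TNF receptor family, 3 of 16 genes were called for diet and 0 for line (3 at an unadjusted p under 0.05). TRAF5, an adaptor of several TNF receptors, fell from 1.1 ± 0.53 in LF to 0.51 ± 0.50 in HF pigs (-0.59, SE 0.15, adjusted p = 0.0061), at 2 of its 3 probes. TRAF4, the member of the family least tied to immune receptors, fell from 1.38 ± 0.31 to 0.95 ± 0.33 (-0.43, SE 0.09, adjusted p = 0.00127), at both of its probes. MAP3K5, a stress kinase that binds TRAF proteins, rose by 0.27 (SE 0.07, adjusted p = 0.00627), with 21 of 24 HF pigs above the LF mean.

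Of NF-kB subunits and inhibitors, 3 of 15 were called for diet, all lower with HF, and 0 for line (0 at an unadjusted p under 0.05). NKRF, a repressor of NF-kB targets, gave -0.29 (SE 0.07, called at 4 of 4 probes). CHUK, a kinase that targets inhibitors of NF-kB and so activates it, gave -0.24 (SE 0.08, at 1 of 4 probes). NFKBIB, an inhibitor that holds NF-kB in the cytoplasm, gave -0.15 (SE 0.05, limma adjusted p = 0.0659, at 1 of 2 probes). CHUK lost its call under 4 alternatives. Among other settings, NFKBIB was not called after 75th percentile scaling (-0.11), quantile normalization (-0.09) or with array position as a block (-0.16).

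Of the inflammatory target genes, 1 of 24 was called for diet and the same 1 for line. SOD2, a mitochondrial enzyme induced by NF-kB that removes superoxide, had a mean of 4.53 ± 0.28 in HF and 4.79 ± 0.33 in LF pigs (-0.26, SE 0.07, adjusted p = 0.0186). By line, the mean was 4.82 ± 0.31 in low RFI pigs and 4.50 ± 0.27 in high RFI pigs (0.32, SE 0.07, adjusted p = 0.0234). On either scan date alone the line difference of SOD2 was not called (0.27 and 0.36, adjusted p = 0.331 and 0.59). Of its 8 probes, 6 were called for diet and 3 for line.

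The brightest probe did not always stand for the others of its gene. Of all 197 kept probes of the 5 lists, 27 were called for diet, 23 lower and 4 higher with HF, a share of 13.7% beside 13.1% of all probes (7.44% lower and 5.61% higher). In 7 genes the brightest probe was not called for diet but another was. These genes, and UBE2V1 for line, were named after their values were seen. The called probe was higher with HF at TANK A_72_P623828 (0.23, limma adjusted p = 0.00582), IKBKB A_72_P773542 (0.27, adjusted p = 0.0496) and TNFRSF1B A_72_P416038 (0.19, adjusted p = 0.0366). These read a TRAF-binding regulator, a kinase that targets inhibitors of NF-kB and a TNF receptor. It was lower with HF at the called probe of the others, IRAK2 O1964 (-1.31, limma adjusted p = 1.71e-05), IL1A O1485 (-0.59, adjusted p = 0.0553), NOS2 A_72_P413773 (-0.23, adjusted p = 0.0631) and TRAF7 A_72_P213682 (-0.19, adjusted p = 0.0547). For line, 4 of the 197 were called, all higher in low RFI pigs, and these were 3 probes of SOD2 and UBE2V1 O11517. UBE2V1, a partner of the enzyme with which TRAF6 builds ubiquitin chains, gave 0.16 at that probe (SE 0.05, adjusted p = 0.0679) and 0.16 at its brightest probe, which was not called (adjusted p = 0.1).

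**Figure D5:**
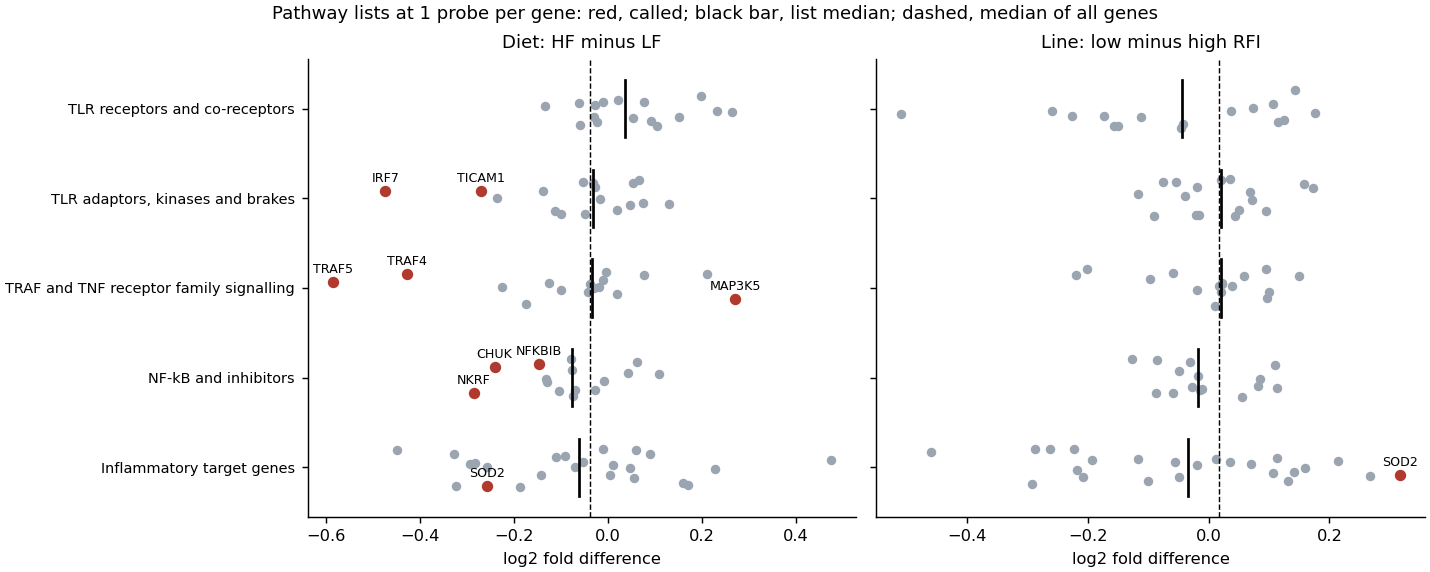
Diet difference (left) and line difference (right) of the genes of the 5 pathway lists on the log2 scale, 1 point per gene at its brightest kept probe, with called genes in red and named, the median of each list as a black bar and the median of all genes as a dashed line. All list medians lie within 0.08 of 0, and SOD2 is the one gene called for line.

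Of the 25 probes, 3 had a second spot with the same 60 bases under another name. The line differences of these pairs were 0.06 and 0.07 at TLR4 A_72_P165431, -0.03 and 0.02 at IRAK1 and 0.01 and 0.04 at MYD88 A_72_P245972. On a single array, the spots of a pair differed by at most 0.32, 0.34 and 0.12 after centring each spot on its mean over arrays. Probes with an accession of TLR2 and NFKB1 only in their name gave line differences of -0.26 (adjusted p = 0.451) and 0.03 (adjusted p = 0.926).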

How the data were processed

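RNA of SCAT from 48 pigs had been labelled with 1 dye and hybridized by the authors to porcine arrays. Scanner output as deposited holds a background-subtracted intensity for every spot. A second, deposited matrix of log2 values was checked to hold the log2 median brightness minus the array median, and served as an alternative. The processing notes name R 2.10.0. Flagged spots (227) were set to missing, no spot was saturated, and 44356 of 60305 probes were kept by the filter given above. Values were log2(signal) minus the array median over kept probes. Probes were named from the array files and the gene table of assembly Sscrofa11.1, giving 12912 symbols. TRAF3 has 3 probes named through a gene number. The files name no genome build, so no positions are given.

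Diet, line and interaction were fitted to all kept probes and 48 arrays in limma 3.58.1 (R 4.3.3, eBayes with trend), two-sided, in place of the study's analysis of variance, which was an alternative. The fit was tested on simulated data. Pathway lists took 1 probe per gene, 11107 genes in all. Correlations used 100000 resamples or all permutations. Named genes were all members, up to 4 called genes per list, and the 3 genes most like TRAF6 and CD40. The members and lists were chosen with earlier results of these data known. Groups and replicate numbers came from the sample titles. Same-numbered arrays deviated together only in part (mean correlation 0.16, lowest -0.19), so numbers were not taken as pairs. Precision is limited by 12 arrays per group. Some single markers are not reported here.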

Additional observations from a re-analysis of the deposited data

How the results depend on the processing

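The values were recomputed under 15 alternatives, and those of list genes also with the mean of all probes of a gene. The number of member probes called for diet was 1, and became 0 with 75th percentile scaling, with the authors' table and on the first scan date alone, and 2 with slide as a block. The number called for line among the genes not picked for it became 1 with array weights (TLR4 A_72_P419074), and the number called for diet in low RFI pigs rose from 0 to 2 there. No probe was called for the interaction under any of them. The 9 list genes called for diet became 14 with array weights, 5 on the first and 2 on the second scan date alone. The 1 list gene called for line became 2 with 75th percentile scaling, quantile normalization, slide or scan date as a block, the replicate block or the mean of all probes of a gene, 3 with array weights and 0 on the second scan date alone. With the replicate block, 1 member probe was called for diet, 0 for line and 12 list genes for diet, and 16 of 48 arrays correlated best with their own number. Of single list genes, NFKBIB lost its diet call under 6 alternatives and CHUK under 4, and within 1 or both scan dates TICAM1, IRF7, TRAF5, MAP3K5, NKRF and SOD2 were not called. The cause of these changes was not tested. Leaving out spots with flagged local background, an alternative added after seeing the data, took away 15 of 48 values at CD40 A_72_P124966 and gave a line difference of -0.46 there (-0.58 in HF and -0.35 in LF pigs). With array position as a block, the TRAF6 A_72_P223847 line difference in LF pigs was 0.34 rather than 0.72, and within HF pigs 1.26, and that of O8523 in LF pigs was -0.01 rather than 0.12. The correlation of TRAF6 with CD40 over all pigs with group means subtracted was -0.05 (permutation p = 0.665), from 0.25 on the first scan date and -0.36 on the second. It was not past 0.05 in the other pairs of probes or settings, except that O8523 and A_72_P544217 gave -0.34 (permutation p = 0.0216, not adjusted for the pairs tried).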
